A study of Mus musculus with 10 samples.

Results

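The receptors described here are the G protein-coupled receptors for serotonin, noradrenaline and adrenaline, dopamine, histamine, acetylcholine (the muscarinic receptors) and adenosine. They were taken by symbol from the protein-coding genes of the deposited tables, which gave 39 genes of 55414 gene IDs. These were 12 serotonin, 9 adrenergic, 5 dopamine, 5 muscarinic, 4 histamine and 4 adenosine receptor genes. The rule uses symbols and no level or fold change, but the group was picked for description with earlier results of these data known. RNA sequencing had been done on total RNA of trigeminal ganglia, which house the sensory neurons of the face, from C57Bl6 mouse embryos at E13.5, mid-gestation. The knockout group held 5 samples with the genotype Prdm12-/- (replicates 16, 29, 42, 49 and 50), and the wild-type group held 5 samples with the genotype Prdm12+/+ (replicates 22, 24, 32, 35 and 45). All 10 samples were also labelled Sox10 Venus+, so both groups shared that label. The loss of Prdm12, a zinc finger gene needed for nociceptor development, is described as constitutive, so it was not limited to a cell type. The titles' letters (F for the knockout, K for the wild type) split as the genotypes do, so whatever they stand for cannot be told apart from genotype. The labels name microdissection and no cell sorting, and they do not say that each sample came from its own embryo, and the p-values therefore describe only how these samples scatter, part of which may be technical. In such bulk samples, fewer cells of a type and less RNA per cell cannot be told apart.

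These receptors carry the signal of small transmitter molecules to G proteins inside the cell. The beta adrenergic receptors, the dopamine receptors Drd1 and Drd5, the adenosine receptors Adora2a and Adora2b, and the serotonin receptors Htr4, Htr6 and Htr7 raise cyclic AMP through the stimulatory G protein, while receptors such as Adora1, Chrm2, the Htr1 group and the alpha-2 adrenergic receptors act through inhibitory G proteins. Others, such as the alpha-1 adrenergic receptors, the Htr2 group, Chrm1 and Chrm3, activate phospholipase C. In sensory ganglia several of them are known to set the excitability and transmitter release of pain-sensing neurons, and Htr1b, Htr1d and Htr1f are the targets of the triptans used against migraine. Many are also made by vessels, immune cells and glia.

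Total counts ranged from 3258008 (knockout 49) and 13603690 (knockout 29) to 33556002 (knockout 16), and the other 7 samples held 27308327 to 32045821. Levels are given as CPM, read counts scaled to a common library size with TMM factors, and 3 counts, taken as the floor of detection, equal 0.869 CPM in the shallowest sample (knockout 49), 0.236 CPM in the next (knockout 29) and 0.0889 to 0.107 CPM elsewhere. Prdm12 itself fell to 18.2 ± 14.1 CPM in knockout ganglia, against 182 ± 76.7 CPM in wild-type ganglia (SD, n = 5 each; edgeR quasi-likelihood test, adjusted p = 0.0156). Of 12 sensory neuron markers tested, 3 fell, Scn10a and Runx1 among them, and 9 did not pass, and none of the 12 was at 0 in all samples. Wild-type 32 and 35 stood apart, with a mesenchyme marker sum of 707 and 988 CPM against 2840 to 10600 CPM in knockout ganglia and 4310 to 6020 CPM in the other wild-type samples. Knockout 16 held the highest sum of central nervous system markers (260 CPM, others 23.2 to 147 CPM), knockout 29 the highest glial sum (5080 CPM, others 1350 to 2530 CPM) and knockout 49 the highest sum of pituitary and oral epithelium markers (710 CPM, others 11.6 to 111 CPM).

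Of the 39 receptor genes, 29 had enough counts to be tested and 10 did not. The filter kept genes at about 0.345 CPM or more in at least 5 samples. Of the 29, 17 stood at that level in all 10 samples, while 4, Adora2b, Adra1d and Adra2b among them, reached it in all knockout but not all wild-type samples, and Htr1a, Htr1d and Htr2c in all wild-type but not all knockout samples. A single adenosine receptor gene, Adora2a, rose in knockout ganglia, none fell, and 28 did not pass (edgeR quasi-likelihood test with Benjamini-Hochberg adjustment over all 18005 genes tested, threshold 0.05). Over all genes tested, 0.0944% were called higher and 0.372% lower. Log2 fold changes, knockout over wild type, were above 0 in 21 and below 0 in 8 of the 29, with a median of 0.53, against a median of -0.03 and 46.3% above 0 over all genes tested. Without adjustment, 9 of the 29 had p under 0.05 with a higher level and 0 with a lower level, against 6.4% and 6.73% of all genes tested. The groups did not overlap in 4 of the 29, all 4 with the knockout above, and in 0 with the knockout below, against 1.29% and 2.92% of all genes tested. The filter shaped these counts, so they are a description only. Adra2b and Adra1d, both counted as higher at an unadjusted p under 0.05, reached the filter level in 5 knockout and 2 wild-type samples, while Drd1, whose knockout samples all lay below the wild type, was not tested. DESeq2 called 4 higher (Adora2a, Adra1a, Adra1b and Adra2a) and 0 lower, against 2.15% and 1.31% of all genes. limma voom with sample quality weights called 9 higher and 1 lower, against 7.02% and 6.0% of all genes.

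**Figure D1:**
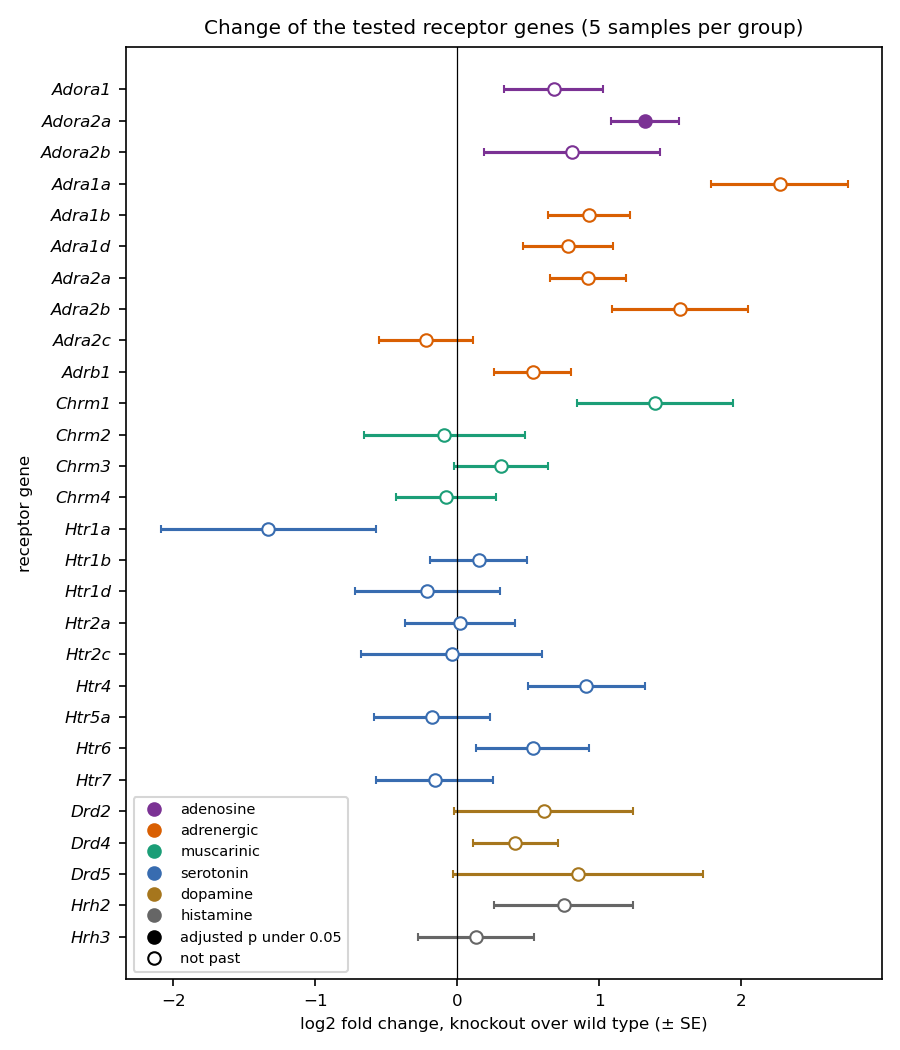
Log2 fold change (knockout over wild type, x axis) with its standard error for 28 tested receptor genes, coloured by transmitter family; filled points passed an adjusted p of 0.05 and open points did not. Adora2a is the filled point at 1.32, Adra1a lies highest at 2.27 and Htr1a lowest at -1.33.

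Per length of exon, which allows genes to be compared, the highest wild-type levels were those of the muscarinic receptor genes Chrm4 and Chrm3. Chrm4 was at 3.26 ± 1.44 CPM per kb in knockout ganglia and 3.51 ± 1.29 CPM per kb in wild-type ganglia, and Chrm3 at 3.01 ± 1.40 CPM per kb in knockout ganglia and 2.43 ± 0.805 CPM per kb in wild-type ganglia (SD, n = 5 each). They were followed in wild-type ganglia by Adra2c at 2.37 ± 0.814, Adra2a at 2.30 ± 0.856, Adora2a at 1.48 ± 0.237 and Htr1b at 1.43 ± 0.239 CPM per kb. Neighbours among these 6 genes differed by less than 1 SD, except that Chrm4 exceeded Chrm3, and Adra2a exceeded Adora2a, by more than the smaller of their SDs. In the knockout the order of the means began with Adra2a (4.34 ± 0.909 CPM per kb), Adora2a (3.67 ± 1.13 CPM per kb) and Chrm4. Exon lengths came from a reference annotation that may differ from the one behind the counts.

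**Figure D2:**
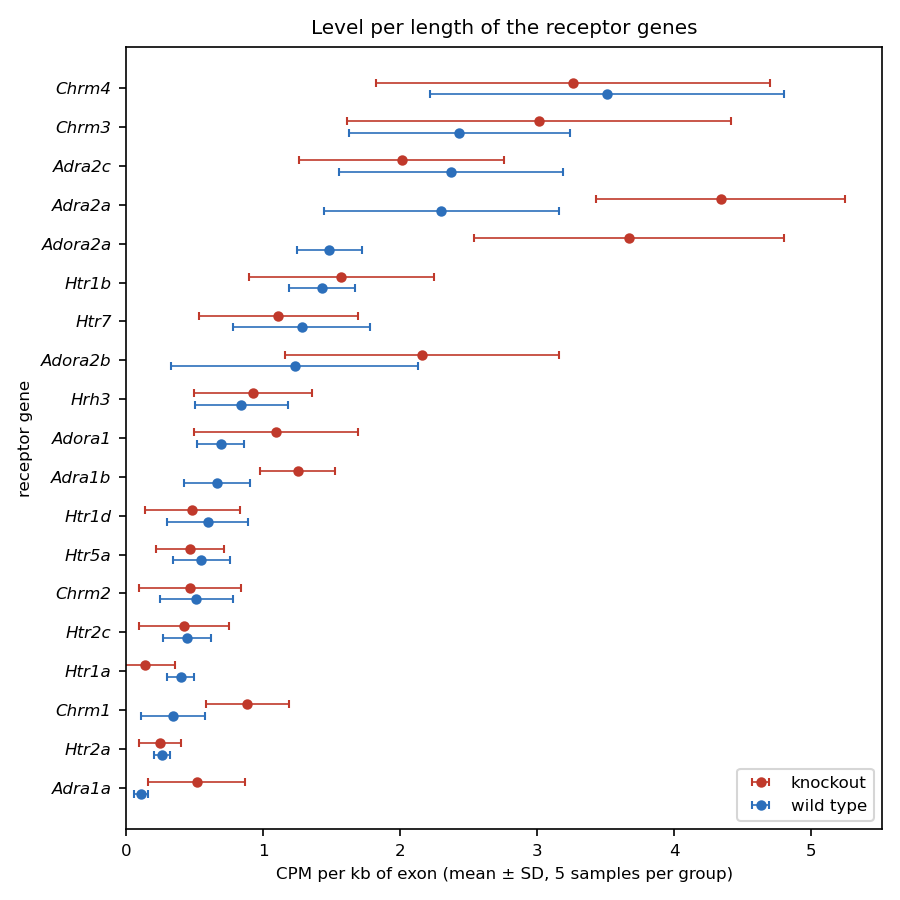
Mean level in CPM per kb of exon (x axis, bars ± SD, 5 samples per group) of 19 receptor genes with a mean of at least 1 CPM, in order of their wild-type level, with the knockout in red above the wild type in blue. Adra2a and Adora2a lead in knockout ganglia at 4.34 and 3.67 CPM per kb, and Chrm4 leads in wild-type ganglia at 3.51 CPM per kb.

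Adenosine receptors sense extracellular adenosine, which is formed largely from released ATP. Adora2a (ENSMUSG00000020178, chromosome 10) encodes a receptor that raises cyclic AMP and is best known from striatal neurons, immune cells and vessels. It was at 8.09, 13.7, 10.8, 7.82 and 15.8 CPM in knockout 16, 29, 42, 49 and 50, against 4.97, 5.31, 3.64, 3.89 and 4.86 CPM in wild-type 22, 24, 32, 35 and 45. Every knockout sample was above every wild-type sample, also in 3 of the other 28 tested receptor genes and in 1.29% of all genes tested. The mean was 11.2 ± 3.47 CPM in knockout ganglia and 4.53 ± 0.726 CPM in wild-type ganglia (SD, n = 5 each), and the log2 fold change of 1.32 (SE 0.24) had an edgeR adjusted p of 0.0436. The call was lost when any of knockout 29, 42, 49 or 50 or wild-type 22, 32, 35 or 45 was left out (adjusted p 0.0561 to 0.142), with log2 fold changes of 1.16 to 1.41, and without wild-type 32 and 35 together the adjusted p was 0.292 (log2 fold change 1.21). Without knockout 29 and 49, the shallowest samples, it was 0.0882 (log2 fold change 1.35).

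The summed level of 10 endothelium markers was 479, 842, 1080, 658 and 1200 CPM in knockout 16, 29, 42, 49 and 50, against 593, 322, 261, 332 and 578 CPM in wild-type 22, 24, 32, 35 and 45. Knockout 50 was highest in both this sum and Adora2a, while wild-type 24, the highest wild-type sample for Adora2a, had the second-lowest endothelium sum of its group. The groups overlapped in the marker sum but not in Adora2a. Macrophage marker sums were 212, 196, 332, 239 and 372 CPM in knockout 16, 29, 42, 49 and 50. In wild-type 22, 24, 32, 35 and 45 they were 189, 297, 61.4, 68.8 and 163 CPM, so the groups overlapped here too. The wild-type samples had the same order in the macrophage sum as in Adora2a. The knockout samples did not, with knockout 50 highest in both but knockout 29 lowest in the sum and knockout 49 in Adora2a. None of the markers of either list was at 0 in all samples. No endothelium or macrophage marker was called by edgeR, with 9 of 10 and 2 of 10 higher at an unadjusted p under 0.05. DESeq2 called 6 endothelium and 0 macrophage markers higher, and limma voom called 8 endothelium and 10 macrophage markers higher. Over all genes tested these shares were 6.4% unadjusted, 2.15% with DESeq2 and 7.02% with limma voom. The part of these cells in the level of Adora2a was not tested.

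Adora2b, the low-affinity adenosine receptor, was at 3.05, 1.42, 6.26, 4.92 and 4.30 CPM in knockout 16, 29, 42, 49 and 50, against 3.20, 4.0, 0.624, 0.341 and 3.17 CPM in wild-type 22, 24, 32, 35 and 45. The groups overlapped, and wild-type 32 and 35, the samples poor in mesenchyme and macrophage markers, were the lowest of all (log2 fold change 0.81, SE 0.62, edgeR adjusted p = 0.578). Without those wild-type samples the log2 fold change was 0.24 (adjusted p = 0.925), and with limma voom, which called it higher, 2.15 (adjusted p = 0.0379). The part of mesenchyme and macrophages in the level of Adora2b was not tested. Adora1, the inhibitory adenosine receptor of neurons, was at 2.83 to 12 CPM in knockout ganglia (median 5.37) and 2.84 to 5.25 CPM in wild-type ganglia (median 3.78). Its highest level, 12 CPM, came from knockout 16, the sample rich in central nervous system markers. Wild-type 22, highest of the wild type in that marker sum (136 CPM), was lowest of the wild type in Adora1 (2.84 CPM). The part of such cells in the level of Adora1 was not tested. The log2 fold change of Adora1 was 0.68 (SE 0.35, edgeR adjusted p = 0.428), and 0.31 without knockout 16. In the reference annotation 20.1% of the exon length of Adora1 overlaps Mybph on the opposite strand, and since no source used here states the strand setting of the counting, reads of the pair cannot be told apart. Adora3 had 9 counts in all knockout samples together and 15 in all wild-type samples and was not tested, and it shares exon sequence with Tmigd3 on the same strand. The 4 adenosine receptor genes summed to 17.4 to 26.9 CPM in knockout ganglia and 7.65 to 14.1 CPM in wild-type ganglia. This sum includes Adora2a, and the groups overlapped in the other 2 tested adenosine receptor genes.

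Adrenergic receptors respond to noradrenaline and adrenaline. Of 9 genes 8 were tested, 7 with a log2 fold change above 0 and 1 below, and 0 were called by edgeR. Unadjusted, 6 were higher and 0 lower at p under 0.05, DESeq2 called 3 higher and 0 lower, and limma voom called 6 higher and 0 lower. Over all genes tested, 6.4% were higher unadjusted, 2.15% with DESeq2 and 7.02% with limma voom. Of the 6 higher unadjusted, Adra1d and Adra2b reached the filter level in 5 knockout but only 2 wild-type samples, so the filter shaped these counts. The median log2 fold change of the family was 0.92. Their summed level was 31.3 to 54.9 CPM in knockout ganglia and 20.1 to 32.7 CPM in wild-type ganglia.

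Adra1a, an alpha-1 receptor best known for contracting smooth muscle, had the largest log2 fold change in size of the 29 tested receptor genes in edgeR with all samples, whereas Htr1a exceeded it with limma voom and without knockout 16. It was at 5.51, 3.07, 2.38, 2.03 and 9.44 CPM in knockout 16, 29, 42, 49 and 50, against 0.601, 1.66, 0.658, 0.649 and 1.16 CPM in wild-type 22, 24, 32, 35 and 45. The groups did not overlap, with knockout 50 and 16 highest. The mean was 4.49 ± 3.08 CPM in knockout ganglia and 0.946 ± 0.461 CPM in wild-type ganglia (SD, n = 5 each), and the log2 fold change of 2.27 (SE 0.48) had an edgeR adjusted p of 0.0713. Without the filter on low counts it was called (adjusted p = 0.0369), as it was by DESeq2 (adjusted p = 0.000220) and limma voom (adjusted p = 0.0164), and over all alternatives the adjusted p ranged from 0.000220 to 0.440. Mural cell markers, among them smooth muscle genes, summed to 327 to 504 CPM in knockout ganglia and 164 to 366 CPM in wild-type ganglia, and their part in the level of Adra1a was not tested.

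Adra2a, an alpha-2 receptor that dampens transmitter release and is a target of clonidine, had the highest CPM of the family. It was at 18.5, 25.3, 18.5, 16.5 and 26.0 CPM in knockout 16, 29, 42, 49 and 50, against 16.2, 13.7, 5.99, 8.09 and 11.7 CPM in wild-type 22, 24, 32, 35 and 45. The groups were separated only narrowly, by knockout 49 and wild-type 22, and the lowest levels were again those of wild-type 32 and 35. The log2 fold change was 0.92 (SE 0.27, edgeR adjusted p = 0.192) and 0.65 without those 2 wild-type samples, and DESeq2 and limma voom made the call (adjusted p = 0.0221 and 0.0152; up to 0.595 over all alternatives).

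Adra2b, a further alpha-2 receptor, was at 0.563, 1.97, 0.498, 0.579 and 0.769 CPM in knockout 16, 29, 42, 49 and 50, against 0.334, 0.416, 0.139, 0.171 and 0.387 CPM in wild-type 22, 24, 32, 35 and 45. The groups did not overlap, but the knockout values rest on as few as 2 counts in knockout 49 (log2 fold change 1.57, SE 0.48, edgeR adjusted p = 0.213). limma voom called Adra2b higher (adjusted p = 0.0239), and over all alternatives the adjusted p reached 0.741. Adra2c, the alpha-2 receptor of many sensory neurons, was at 4.05 to 9.68 CPM in knockout ganglia and 3.80 to 10.4 CPM in wild-type ganglia (log2 fold change -0.22, SE 0.33, edgeR adjusted p = 0.790). Here wild-type 32 was the highest sample and wild-type 22 the lowest, unlike in Adra2a.

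Adra1b, an alpha-1 receptor of vessels and neurons, was at 4.74, 4.09, 5.55, 3.19 and 3.60 CPM in knockout 16, 29, 42, 49 and 50, against 2.2, 3.55, 1.39, 2.29 and 1.76 CPM in wild-type 22, 24, 32, 35 and 45. Only wild-type 24 reached into the knockout range (log2 fold change 0.93, SE 0.29, edgeR adjusted p = 0.217; DESeq2 adjusted p = 0.0254, limma voom 0.0155, up to 0.71 over all alternatives). Adra1d was at 0.454 to 0.869 CPM in knockout ganglia and 0.242 to 0.467 CPM in wild-type ganglia (log2 fold change 0.78, SE 0.32, edgeR adjusted p = 0.338). Adrb1, the cardiac beta receptor, was at 0.919 to 1.40 CPM in knockout ganglia and 0.614 to 1.09 CPM in wild-type ganglia (edgeR adjusted p = 0.412). limma voom called Adrb1 higher (adjusted p = 0.0293), and over all alternatives the adjusted p reached 0.828. Adrb3, the receptor of fat tissue, had 18 counts in knockout ganglia and 17 in wild-type ganglia and was not tested.

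**Figure D3:**
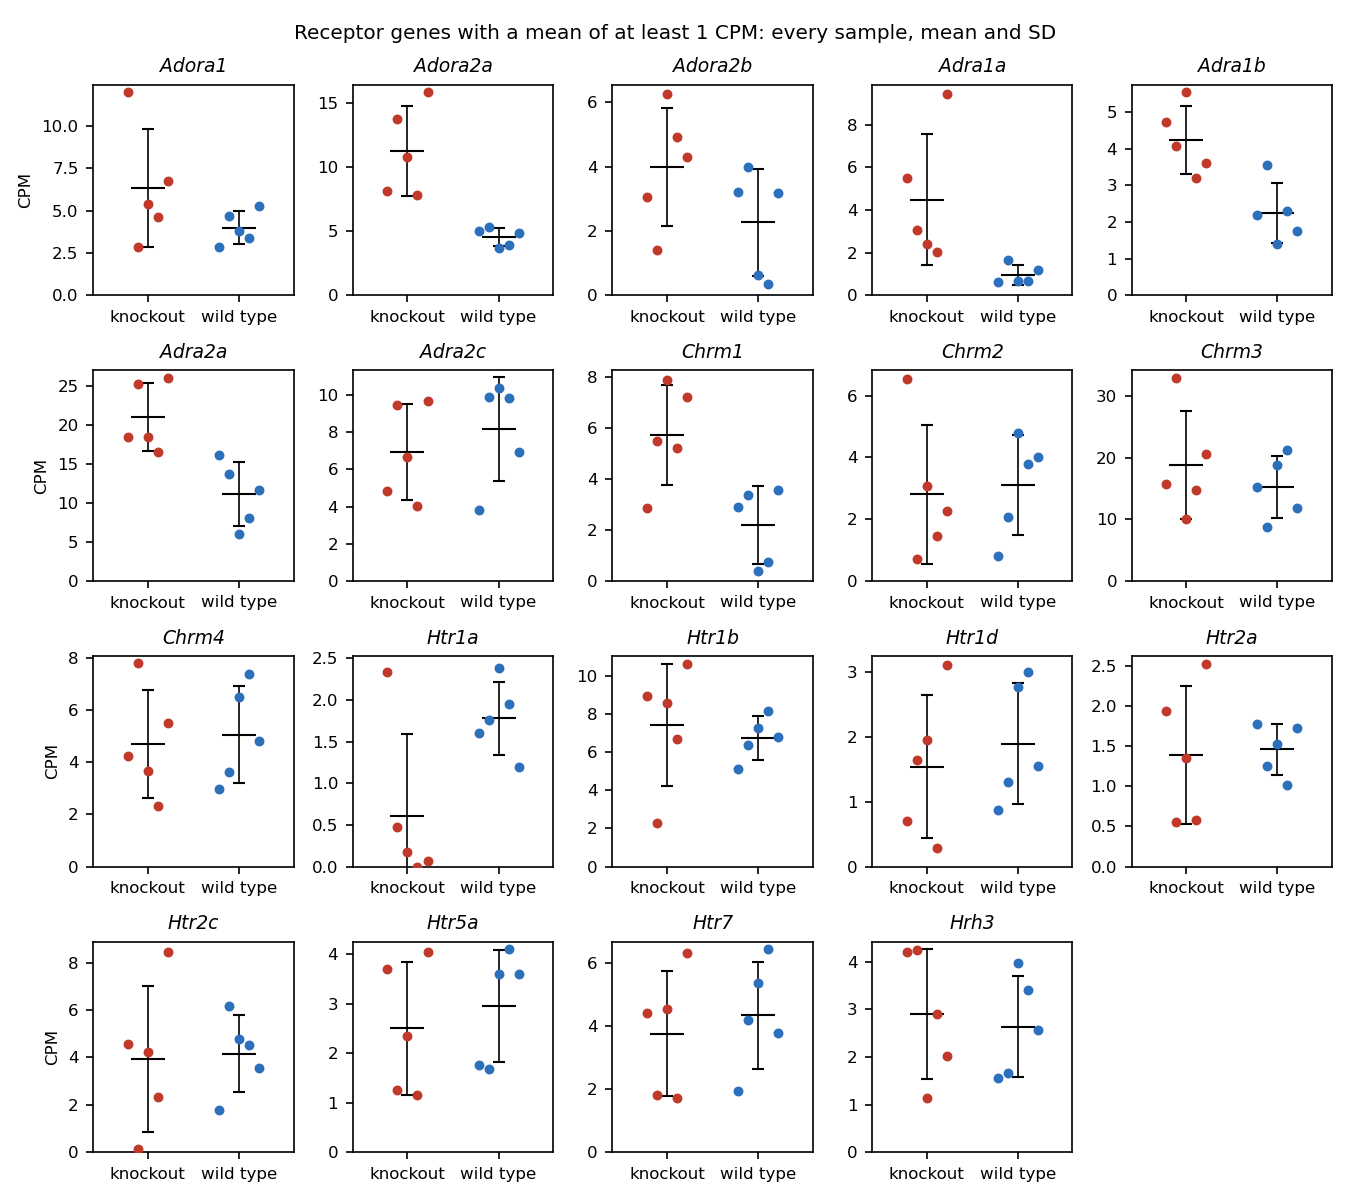
CPM in each sample (points, 5 knockout samples in red left of 5 wild-type samples in blue) with mean and SD for 19 receptor genes with a mean of at least 1 CPM. The groups do not overlap for Adora2a, Adra1a and Adra2a, and Htr1a shows 1 knockout sample at 2.34 CPM beside 4 at or below 0.472 CPM.

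Muscarinic receptors carry the slower signal of acetylcholine. Chrm1, a phospholipase C-coupled receptor best known from the forebrain, was at 2.85, 5.51, 7.90, 5.21 and 7.23 CPM in knockout 16, 29, 42, 49 and 50, against 2.90, 3.36, 0.381, 0.751 and 3.59 CPM in wild-type 22, 24, 32, 35 and 45. All wild-type samples lay below 4 of the 5 knockout samples, and knockout 16 lay within the wild-type range. The log2 fold change was 1.39 (SE 0.55, edgeR adjusted p = 0.329) and 0.86 without wild-type 32 and 35. Those samples held the least Chrm1 and the least mesenchyme, macrophage and mural cell markers. Within the knockout, replicate 29 was lowest in the mesenchyme and macrophage sums (2840 and 196 CPM). Replicate 16 was lowest in the mural cell sum (327 CPM) and in Chrm1. The part of these cells in the level of Chrm1 was not tested. limma voom called Chrm1 higher, with a log2 fold change of 2.40 (adjusted p = 0.0247). Chrm3, which drives glands and smooth muscle, was at 10.1 to 33.0 CPM in knockout ganglia (median 15.7) and 8.82 to 21.2 CPM in wild-type ganglia (median 15.3). Knockout 29, the sample richest in glial markers, held the 33.0 CPM (log2 fold change 0.31, SE 0.33, edgeR adjusted p = 0.692). Wild-type 24, with the second-highest glial sum of the wild type (2420 CPM), held the lowest Chrm3 of all samples (8.82 CPM). The part of glia in the level of Chrm3 was not tested.

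The inhibitory muscarinic genes had group means close to each other. Chrm2, the receptor that slows the heart and also acts on nociceptor endings, was at 0.708 to 6.52 CPM in knockout ganglia and 0.801 to 4.78 CPM in wild-type ganglia (log2 fold change -0.09, SE 0.57, edgeR adjusted p = 0.960). Its highest sample was knockout 16 and its lowest knockout 29. Chrm4 was at 2.32 to 7.79 CPM in knockout ganglia and 2.97 to 7.37 CPM in wild-type ganglia (log2 fold change -0.08, SE 0.35, edgeR adjusted p = 0.935). The widths of these standard errors leave room for changes of either sign. Chrm5 had 0 counts in all knockout samples and 5 in all wild-type samples together and was not tested.

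Serotonin receptors showed a median log2 fold change of -0.04 over 9 tested genes, 4 above 0 and 5 below, and 0 were called by edgeR. Unadjusted, 1 (Htr4) was higher and 0 were lower at p under 0.05, DESeq2 called 0, and limma voom called 1 lower (Htr1a). Among all genes tested, 6.4% were higher and 6.73% lower unadjusted, 2.15% and 1.31% with DESeq2, and 7.02% and 6.0% with limma voom. Htr1a, the inhibitory receptor best known as the autoreceptor of serotonin neurons, was at 2.34, 0.472, 0.178, 0 and 0.0699 CPM in knockout 16, 29, 42, 49 and 50, against 1.6, 1.76, 2.39, 1.95 and 1.20 CPM in wild-type 22, 24, 32, 35 and 45. All knockout samples other than 16 lay below all wild-type samples, and the 0 of knockout 49 lies under a floor of 0.869 CPM there. The log2 fold change was -1.33 (SE 0.76, edgeR adjusted p = 0.468) with all samples and -3.18 (adjusted p = 0.0452) without knockout 16. Over all alternatives the adjusted p ranged from 0.0119 (limma voom) to 0.844. Central nervous system markers summed to 260 CPM in knockout 16 and to 46.8, 147, 134 and 58.4 CPM in knockout 29, 42, 49 and 50. In wild-type 22, 24, 32, 35 and 45 they summed to 136, 126, 23.2, 27.7 and 98.5 CPM. Wild-type 32 and 35, highest of the wild type in Htr1a, were thus lowest in this sum. Atoh1, a hindbrain gene of that list named here for its level in knockout 16, was at 12.4 CPM there. It was at 0 to 0.869 CPM in the other knockout samples and 0 to 1.05 CPM in wild-type ganglia. The part of such cells in the Htr1a level of knockout 16 was not tested.

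The migraine drug targets were measured at uneven levels. Htr1b was at 8.95, 2.28, 8.57, 6.66 and 10.6 CPM in knockout 16, 29, 42, 49 and 50, against 5.10, 6.39, 7.27, 8.16 and 6.76 CPM in wild-type 22, 24, 32, 35 and 45. The knockout held both the lowest and the highest sample (log2 fold change 0.15, SE 0.34, edgeR adjusted p = 0.874). An antisense gene, D430036J16Rik, overlaps 18.0% of the Htr1b exon length and had 423 counts over all samples, while Htr1b had 898 in knockout ganglia and 994 in wild-type ganglia. Htr1d was at 0.290 to 3.11 CPM in knockout ganglia and 0.867 to 3.0 CPM in wild-type ganglia (log2 fold change -0.21, SE 0.51, edgeR adjusted p = 0.883). In the wild type its highest samples were 35 and 32, which also had the highest sums of sensory neuron markers (9760 and 10000 CPM). In the knockout the orders differed. Knockout 50, highest in Htr1d, had a marker sum of 4650 CPM, and knockout 29, highest in that sum (6460 CPM), had Htr1d at 1.65 CPM. The part of sensory neurons in the level of Htr1d was not tested. Htr1f had 11 counts in knockout ganglia and 5 in wild-type ganglia and was not tested.

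Htr7, a stimulatory receptor found in nociceptors of adult ganglia, was at 1.74 to 6.33 CPM in knockout ganglia and 1.94 to 6.45 CPM in wild-type ganglia (log2 fold change -0.16, SE 0.41, edgeR adjusted p = 0.887). Htr5a, an inhibitory receptor, was at 1.16 to 4.05 CPM in knockout ganglia and 1.69 to 4.10 CPM in wild-type ganglia (log2 fold change -0.18, SE 0.41, edgeR adjusted p = 0.874). In both genes knockout 50 was the highest knockout sample and wild-type 35 the highest wild-type sample. Htr2c, a phospholipase C-coupled receptor that is abundant in choroid plexus, was at 4.56, 0.157, 4.23, 2.32 and 8.46 CPM in knockout 16, 29, 42, 49 and 50, against 1.77, 6.17, 4.78, 4.54 and 3.56 CPM in wild-type 22, 24, 32, 35 and 45. Only 2 counts were seen in knockout 29 (log2 fold change -0.04, SE 0.64, edgeR adjusted p = 0.987). Knockout 29 was also the lowest sample of all 10 for Htr1b and Htr2a.

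Htr2a, linked in adult animals to serotonin-evoked pain, was at 0.551 to 2.52 CPM in knockout ganglia and 1.02 to 1.77 CPM in wild-type ganglia (log2 fold change 0.02, SE 0.39, edgeR adjusted p = 0.990). Htr4 was at 0.290 to 1.26 CPM in knockout ganglia and 0.234 to 0.520 CPM in wild-type ganglia (log2 fold change 0.91, SE 0.41, edgeR adjusted p = 0.374). Htr6 was at 0.280 to 0.605 CPM in knockout ganglia and 0.171 to 0.493 CPM in wild-type ganglia (edgeR adjusted p = 0.573). Htr2b, with 13 counts in knockout ganglia and 26 in wild-type ganglia, and Htr5b, with 12 in knockout ganglia and 23 in wild-type ganglia, were not tested. Htr2b overlaps Psmd1, an abundant gene on the opposite strand, over 11.8% of its exon length.

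Dopamine receptor genes all stayed below 1 CPM in every wild-type sample. Drd1, a stimulatory receptor, did not reach the filter, but its groups did not overlap. It was at 0.207, 0.0787, 0.0711, 0.290 and 0.175 CPM in knockout 16, 29, 42, 49 and 50, against 0.434, 0.352, 0.450, 0.580 and 0.669 CPM in wild-type 22, 24, 32, 35 and 45. These levels rest on 16 counts in all knockout samples and 73 in all wild-type samples. Knockout 29 and 49 had 1 count each and knockout 42 had 2, all under the floors of those samples. The wild-type levels themselves lie under the floor of 0.869 CPM in knockout 49. Fitted without the filter, the log2 fold change was -1.68 (SE 0.52, edgeR adjusted p = 0.268). Drd2, an inhibitory receptor of pituitary and striatum, ranged from 0 to 1.63 CPM in knockout ganglia and from 0.205 to 0.739 CPM in wild-type ganglia, with the 1.63 CPM in knockout 16 (log2 fold change 0.61, SE 0.63, edgeR adjusted p = 0.688). Without knockout 16 the log2 fold change turned to -0.16 (adjusted p = 0.928). Drd4 was at 0.605 to 1.57 CPM in knockout ganglia and 0.580 to 0.845 CPM in wild-type ganglia (edgeR adjusted p = 0.568). Drd5 was at 0.0349 to 1.45 CPM in knockout ganglia and 0 to 0.669 CPM in wild-type ganglia (edgeR adjusted p = 0.687), and an antisense gene overlaps 48.6% of its exon length. Drd3 had 0 counts in knockout ganglia and 1 in wild-type ganglia.

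Among histamine receptors, Hrh3, an inhibitory receptor of nerve endings, was at 4.21, 4.25, 1.14, 2.90 and 2.03 CPM in knockout 16, 29, 42, 49 and 50, against 1.57, 1.66, 3.98, 3.41 and 2.57 CPM in wild-type 22, 24, 32, 35 and 45. The wild-type range lay within knockout ganglia range (log2 fold change 0.13, SE 0.41, edgeR adjusted p = 0.912). Hrh2, the receptor that drives gastric acid, was at 0.0787 to 0.925 CPM in knockout ganglia and 0.171 to 0.423 CPM in wild-type ganglia (edgeR adjusted p = 0.519). Hrh1, a mediator of allergic itch in adult animals, had 23 counts in knockout ganglia and 37 in wild-type ganglia, and Hrh4 had 6 in knockout ganglia and 7 in wild-type ganglia, and neither was tested.

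Grouped by signalling route instead of transmitter, the 9 tested stimulatory receptors had a median log2 fold change of 0.81 (8 above 0, 1 below), the 7 tested phospholipase C-coupled receptors 0.78 (6 above, 1 below) and the 13 tested inhibitory receptors 0.13 (7 above, 6 below). All genes tested had a median of -0.03. The filter shaped these medians and counts, so they are a description only. Hrh2 reached the filter level in 4 knockout and 1 wild-type samples, Htr6 in 4 and 2, and Adra1d in 5 and 2. The inhibitory Htr1a reached it in 2 knockout and 5 wild-type samples. Drd1, a stimulatory receptor gene whose knockout samples all lay below the wild type, was not tested. The summed level of the 11 stimulatory receptor genes was 20.4 to 33.4 CPM in knockout ganglia and 12.3 to 18.5 CPM in wild-type ganglia. These ranges did not overlap, but without Adora2a they did, at 8.03 to 18.7 CPM in knockout ganglia and 8.63 to 13.2 CPM in wild-type ganglia, a sum added after the values were seen. For the 18 inhibitory receptor genes it was 41.4 to 72.8 CPM in knockout ganglia and 39.8 to 54.2 CPM in wild-type ganglia. For the 10 phospholipase C-coupled genes it was 29.5 to 52.6 CPM in knockout ganglia and 24.6 to 31.4 CPM in wild-type ganglia.

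**Figure D4:**
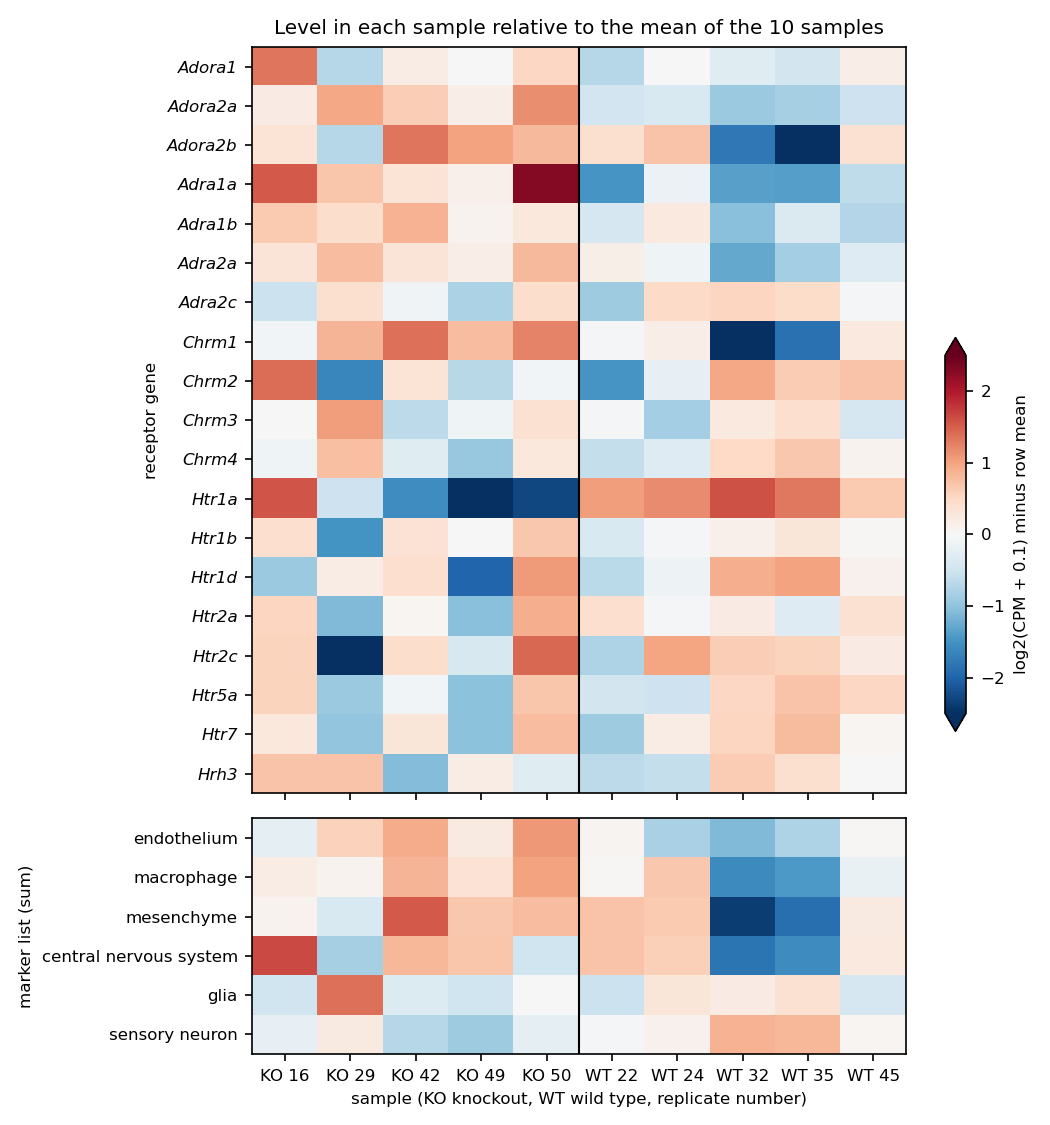
Level of 19 receptor genes (upper panel) and summed level of 6 marker lists (lower panel) in each sample, as log2(CPM + 0.1) minus the mean of the 10 samples, with red above and blue below that mean and colours ending at the limits of the scale. Wild-type 32 and 35 are blue for Adora2b and Chrm1 and for the endothelium, macrophage and mesenchyme sums, and knockout 16 is red for Htr1a, Adora1 and Chrm2 and for the central nervous system sum. The part of such cells in these receptor levels was not tested.

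The genes that make, move and break down the ligands, and the G proteins and enzymes that act downstream, were examined as 8 lists with 70 genes, 63 of them tested. edgeR called 0 of the 63 in either direction, with 9 higher and 5 lower at an unadjusted p under 0.05. DESeq2 called 4 higher and 1 lower and limma voom 8 higher and 2 lower. Over all genes tested, 6.4% were higher and 6.73% lower unadjusted, 2.15% and 1.31% with DESeq2, and 7.02% and 6.0% with limma voom. The median log2 fold change over the 63 was 0.10. By list it was 0.67 for 6 acetylcholine genes, 0.25 for 10 adenylyl cyclases and for 4 phospholipase C beta genes, 0.10 for 13 adenosine genes, -0.02 for 14 G protein alpha subunits, -0.03 for 7 receptor kinases and arrestins, -0.12 for 7 serotonin genes and -0.25 for 2 histamine genes.

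The 2 most abundant genes of each list illustrate the levels. Gnao1, the main inhibitory alpha subunit of neurons, was at 356 ± 89.0 CPM in knockout ganglia and 341 ± 77.0 CPM in wild-type ganglia, and Gnai2 at 363 ± 66.0 CPM in knockout ganglia and 251 ± 82.0 CPM in wild-type ganglia (edgeR adjusted p = 0.923 and 0.334; SD, n = 5 each). The adenylyl cyclase genes Adcy1 and Adcy6, whose products make cyclic AMP, were at 167 ± 37.6 and 153 ± 35.2 CPM in knockout ganglia and 172 ± 50.8 and 137 ± 29.5 CPM in wild-type ganglia. Arrb1, an arrestin that ends receptor signalling, was at 186 ± 49.7 CPM in knockout ganglia and 228 ± 41.8 CPM in wild-type ganglia, and the receptor kinase gene Grk2 at 107 ± 9.36 CPM in knockout ganglia and 96.3 ± 5.94 CPM in wild-type ganglia. Plcb3 was at 127 ± 47.2 CPM in knockout ganglia and 161 ± 23.4 CPM in wild-type ganglia, and Plcb4 ranged from 34.1 to 59.3 CPM in knockout ganglia and 42.5 to 64.2 CPM in wild-type ganglia. None of these 8 passed the test.

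Among the ligand genes, Ache, which splits acetylcholine, ranged from 57.6 to 139 CPM in knockout ganglia and 31.1 to 75.7 CPM in wild-type ganglia, and the choline transporter gene Slc44a1 at 68.9 ± 16.6 CPM in knockout ganglia and 51.9 ± 12.2 CPM in wild-type ganglia. Slc29a4, a monoamine and nucleoside transporter, was at 64.5 ± 40.2 CPM in knockout ganglia and 55.9 ± 10.4 CPM in wild-type ganglia, and Entpd1, which breaks down extracellular ATP, at 35.4 ± 9.91 CPM in knockout ganglia and 37.8 ± 3.40 CPM in wild-type ganglia. Maoa, which degrades serotonin, was at 64.8 ± 15.2 CPM in knockout ganglia and 68.9 ± 9.21 CPM in wild-type ganglia, and Slc18a2, the vesicular monoamine transporter, at 14.2 ± 3.40 CPM in knockout ganglia and 17.2 ± 2.99 CPM in wild-type ganglia. Hnmt and Hdc, which degrade and make histamine, averaged 1.55 ± 0.834 and 0.730 ± 0.342 CPM in knockout ganglia, against 1.21 ± 0.579 and 1.22 ± 1.45 CPM in wild-type ganglia. None of these 8 passed either (edgeR).

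Some list members were chosen for mention after their values were seen. Gnas, which encodes a stimulatory alpha subunit, was at 120, 230, 168, 203 and 144 CPM in knockout 16, 29, 42, 49 and 50, against 104, 101, 82.3, 88.5 and 98.2 CPM in wild-type 22, 24, 32, 35 and 45. The groups did not overlap, and the log2 fold change of 0.87 (SE 0.17) had an edgeR adjusted p of 0.0587, while DESeq2 and limma voom called it higher. Gnal, another alpha subunit gene of that list, was at 138 ± 24.1 CPM in knockout ganglia and 154 ± 50.8 CPM in wild-type ganglia. Its log2 fold change was -0.15 (SE 0.22, edgeR adjusted p = 0.784). Tph2, the neuronal enzyme of serotonin synthesis, was below all wild-type samples in every knockout sample, at 0 to 2.05 CPM in knockout ganglia and 2.25 to 3.64 CPM in wild-type ganglia (log2 fold change -1.42, SE 0.46, edgeR adjusted p = 0.237). DESeq2 and limma voom both called Tph2 lower. Slc18a3, the vesicular acetylcholine transporter, was at 0.869 to 10.1 CPM in knockout ganglia and 0.367 to 1.02 CPM in wild-type ganglia (log2 fold change 2.45, SE 0.60, edgeR adjusted p = 0.111), with the highest level in knockout 16. DESeq2 called Slc18a3 higher and limma voom did not call it.

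The other marker lists had no gene called by edgeR. Median log2 fold changes were 1.11 for 10 endothelium, 0.58 for 9 mural cell, 0.72 for 10 macrophage, 0.18 for 8 glia, 0.55 for 8 mesenchyme, 0.60 for 6 red cell and -0.64 for 6 skeletal muscle markers tested. For 7 central nervous system and 6 pituitary and oral epithelium markers tested they were 1.76 and 2.54, and for the 12 sensory neuron markers, of which 3 fell, it was -0.81. Over these lists together, 19 of 82 tested markers were higher and 11 lower at an unadjusted p under 0.05, DESeq2 called 9 higher and 4 lower, and limma voom called 24 higher and 8 lower. The shares over all genes tested were 6.4% higher and 6.73% lower unadjusted, 2.15% and 1.31% with DESeq2, and 7.02% and 6.0% with limma voom.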

How the data were processed

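RNA of 10 trigeminal ganglion samples was sequenced, 5 per genotype, and samples were grouped by their labels. The authors deposited raw counts per Ensembl gene ID, 1 table per sample. The submitters' processing notes list featureCounts 1.5.0-p1, the aligner STAR 2.7.10a, the base caller's converter bcl2fastq 2.20.0.422 and the builds GRCm39 and mm10, without roles. No source used here states the annotation release, strand setting or handling of shared reads. Symbols matched 52081 of 55414 IDs, and gene types, exon lengths and overlaps came from GENCODE M21 (GRCm38).

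Genes were filtered with filterByExpr (minimum count 10) and compared with edgeR 4.0.16 (TMM factors, quasi-likelihood test, Benjamini-Hochberg adjustment over all 18005 genes, threshold 0.05) in R 4.3.3. Alternatives used DESeq2 1.42.0, limma 3.58.1 (voom with quality weights), other filters and size factors, and fewer samples. The SE of an edgeR log2 fold change is its size divided by the square root of the quasi-likelihood F statistic. The fits were tested on simulated data. Among 20 within-group pairs the chi-square statistic per gene was lowest, at 9.88, for wild-type 32 and 35 and 17.3 to 247 for the others, so every pair differed beyond sampling noise, which does not show that embryos differed. The chi-square statistic grows with depth, and the 17.3 came from knockout 42 paired with knockout 49, the shallowest sample. Wild-type 32 and 35 also had the highest rank correlation (Spearman) of these pairs, 0.996 against 0.938 to 0.989. Whether they are independent samples is not known. Depth sets the precision, and floors cover counting error only.

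The receptor genes, their signalling classes and the 18 gene lists were chosen with earlier results of these data known. All receptor genes enter the counts and sums. Of a list the called members, or else the 2 most abundant, are named. A receptor gene and a marker gene are not reported here by name, and the figures leave the receptor gene out. No protein or promoter sequence is shown.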

Additional observations from a re-analysis of the deposited data

Results flagged for a closer look

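In 2 of the 58 groups of 5 samples (29 tested receptor genes in 2 genotypes), 1 sample lay far from the others by Dixon's test at the 95% level, which chance gives in about 1 of 20 groups. Adra2b was at 1.97 CPM in knockout 29, against 0.498 to 0.769 CPM in the other knockout samples. Knockout 29 also held the highest glial marker sum (5080 CPM), whose part in this level was not tested. Htr1a was at 2.34 CPM in knockout 16, against 0 to 0.472 CPM in the other knockout samples. That sample held the highest central nervous system marker sum (260 CPM), whose part in this level was not tested.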

How the results depend on the processing

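Adora2a kept its sign under all 17 alternatives and passed the threshold in 7. Over the receptor log2 fold changes recomputed under the alternatives, 416 of 484 kept sign and side of the threshold, 14 passed it newly, 10 lost it and 44 changed sign, and 17 of 29 genes never changed sign. Receptor genes called higher numbered 2 without the filter, 4 with DESeq2, 9 with limma voom, 0 without knockout 29 and 49 and 0 without wild-type 32 and 35. Receptor genes called lower numbered 1 with limma voom. Over all genes, 55 were called higher and 102 lower without the filter, 26 higher with a filter of 1 CPM in 5 samples, 388 and 236 with DESeq2, 1264 and 1080 with limma voom, 6 higher without knockout 29 and 49, and 0 and 19 without wild-type 32 and 35. Of the pathway genes, 1 was higher and 1 lower without the filter, 1 higher with the 1 CPM filter, 4 and 1 with DESeq2 and 8 and 2 with limma voom. Leaving out each sample in turn gave 2 to 35 genes higher, 27 to 88 lower, 0 to 1 receptor genes higher, 0 to 1 lower (Htr1a, without knockout 16) and 0 to 1 pathway genes higher.

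Besides Drd2 (0.61), the genes that changed sign had edgeR log2 fold changes with all samples between -0.22 and 0.31. With limma voom the log2 fold change was -0.08 for Chrm3, -0.51 for Hrh3, 0.37 for Htr2c and 0.01 for Htr7. Htr2c was at 0.01 with DESeq2's size factors in edgeR and 0.03 with the 1 CPM filter. Without knockout 29 and 49 it was 0.36 for Chrm2, -0.10 for Hrh3, 0.02 for Htr1d, 0.47 for Htr2c, 0.19 for Htr5a and 0.23 for Htr7. Without wild-type 32 and 35 it was 0.07 for Adra2c, 0.38 for Chrm2, 0.38 for Chrm4, 0.45 for Htr1d, -0.05 for Htr2a, 0.12 for Htr2c, 0.20 for Htr5a and 0.27 for Htr7. Leaving out each sample in turn gave -0.67 to 0.19 for Chrm2, -0.29 to 0.09 for Chrm4, -0.16 to 0.88 for Drd2, -0.06 to 0.36 for Hrh3, -0.02 to 0.41 for Htr1b, -0.62 to 0.01 for Htr1d, -0.30 to 0.26 for Htr2a, -0.52 to 0.30 for Htr2c, -0.41 to 0.03 for Htr5a and -0.42 to 0.05 for Htr7. The cause was not tested.

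No paired analysis was possible because the genotypes share no replicate number. In knockout 49 a level under 0.869 CPM lies below the floor of 3 counts.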
